A study of Mus musculus with 4 samples.

Results

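The genes of glycine transport and glycine reception were followed through the nuclei of the mouse posterior hindbrain. Of the 32285 genes counted, 7 were chosen as members of this family, by name: the transporters Slc6a5 and Slc6a9, the receptor subunits Glra1, Glra2, Glra3 and Glrb, and the scaffold gene Gphn. Their levels are given in the 14 cell types and 134 neuronal clusters of the authors' annotation, in the 39461 nuclei that passed the authors' quality control, of which 12539 were neurons. A further 22 genes of glycine metabolism, GABA use and inhibitory lineage served as a comparison list.

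The study asked how opposite changes in the activity of AgRP and POMC neurons, known above all from the arcuate hypothalamus, act on the hindbrain area that holds the nucleus of the solitary tract and the area postrema. Single-nucleus RNA was counted in 4 libraries, 2 from control mice (genotype WT in the labels) and 2 from AgRP-Gq;POMC-Gi mice. The latter carried AgRP-IRES-Cre+/-;hM3DGqfl/- ;POMC-Dre+/-;hM4DGifl/-, so that an activating designer receptor was driven from AgRP and an inhibiting one from POMC. The labels give the controls only as WT, whereas the study's methods describe its control group as carrying both receptor alleles without Cre and Dre. Whether cells of the sampled hindbrain also carried a designer receptor was not tested. Mice of both groups were 12 to 20 weeks old and were given CNO, the drug that acts on both designer receptors, at 3 mg per kg, and hindbrain was collected 1 h later, so neither group was free of CNO. Each group had 2 mice by the study's account, and samples of a condition were pooled. Whether the 2 libraries of a group came from separate mice is not stated, so p-values measure the spread between these libraries, which may be technical.

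Glycine is, with GABA, the main fast inhibitory transmitter of the brainstem and spinal cord. Neurons that release it take it up again with GlyT2, the product of Slc6a5, whereas GlyT1, the product of Slc6a9, clears glycine mainly into glia. Both glycine and GABA are loaded into vesicles by the same carrier, encoded by Slc32a1, so a neuron that also has the GABA-making enzymes Gad1 and Gad2 can use both. The glycine receptor is a chloride channel built of alpha subunits (Glra1, Glra2, Glra3) and the beta subunit Glrb, and gephyrin, encoded by Gphn, holds the beta subunit, and many GABA-A receptors, at the synapse.

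On GRCm38 with GENCODE M21, Slc6a5 spans chr7:49910146-49963856 and Slc6a9 chr4:117834506-117875198, both on the plus strand. Glra1 spans chr11:55514238-55608198, Glra2 chrX:165129017-165327393 and Glrb chr3:80843599-80913660 on the minus strand, and Glra3 chr8:55940460-56130070 and Gphn chr12:78226379-78684772 on the plus strand. The members differ in how widely they are transcribed, and the letters before their start sites differ too. RefSeq promoters on GRCm38.p6 were found for 6 of the 7 members, 9 promoters in all. The 4 printed here set 3 genes whose level varied widely among neuronal clusters (Slc6a5, Glra2, Glra3) beside 1 whose level varied little (Glrb). The run of Slc6a5 lies at chr7:49910049-49910145 on the plus strand, Glra2 at chrX:165327394-165327593 on the minus strand, Glra3 at chr8:55940218-55940417 on the plus strand and Glrb at chr3:80913661-80913860 on the minus strand. Each run reads 5′ to 3′ along the gene's strand, lies outside annotated exons, and has its CG dinucleotides in capitals.
Slc6a5: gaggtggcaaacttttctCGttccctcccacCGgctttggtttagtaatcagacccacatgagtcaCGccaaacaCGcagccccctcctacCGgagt
Glra2: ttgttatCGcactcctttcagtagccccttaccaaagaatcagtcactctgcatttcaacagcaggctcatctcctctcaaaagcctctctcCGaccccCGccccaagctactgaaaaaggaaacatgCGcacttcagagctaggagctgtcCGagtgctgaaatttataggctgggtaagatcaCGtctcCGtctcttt
Glra3: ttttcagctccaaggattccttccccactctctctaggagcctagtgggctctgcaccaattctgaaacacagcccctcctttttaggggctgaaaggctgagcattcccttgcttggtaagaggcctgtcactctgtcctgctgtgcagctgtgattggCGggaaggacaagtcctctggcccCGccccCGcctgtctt
Glrb: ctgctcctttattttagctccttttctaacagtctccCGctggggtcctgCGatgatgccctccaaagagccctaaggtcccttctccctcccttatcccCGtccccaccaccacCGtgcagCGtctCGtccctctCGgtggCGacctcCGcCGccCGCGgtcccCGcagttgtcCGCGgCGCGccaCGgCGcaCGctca

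Over the 250 bases before the RefSeq start, Glrb held 20 CG dinucleotides and Gphn 34, which placed them at the 83.7 and 97.0 percentile of 32851 mouse promoters, whose median was 6. Glra3 held 4, Glra2 8, and the Slc6a5 starts 11 and 7. The 3 Slc6a9 starts held 9, 10 and 8. Not all of these windows were clear of annotated exons of the same gene. The windows of Gphn and of the first Slc6a9 start began inside such an exon. In the first Slc6a5 window an exon began 153 bases from the end, and in the other Slc6a9 windows 157 and 55 bases from it. The windows of Glrb, Glra2, Glra3 and the second Slc6a5 start met none. Glrb and Gphn, the 2 with the most CG among the 6 members read, were also the 2 whose level varied least among neuronal clusters. Slc6a5 did not follow that order, since its first start held more CG than any Slc6a9 start. Yet the ratio of the 90th to the 10th percentile of cluster means was 99.5 for Slc6a5 and 3.19 for Slc6a9. Whether CG content goes with this spread was not tested. The Gphn window began inside an exon and the Glrb window held none, so their CG counts are of unlike windows. The letters TATAAA, read on both strands, were present before the start of Glra2 and of no other member with a promoter, against 12.4% of all promoters. GGGCGG was present before Glra2, Glra3, Glrb, Gphn and the first Slc6a9 start (32.7% of all promoters), and CCAAT before Glra3 alone (33.8%). These are matches of letters in a window, not binding sites.

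The libraries were of like size. They held 9723 to 10051 nuclei with a median of 3211 to 3502 UMIs each, a UMI being one counted RNA molecule, and neurons had a median of 8252 to 9624 UMIs. The share of neurons was 25.4% and 27.2% with control against 38.0% and 36.5% under AgRP-Gq;POMC-Gi. Of 30 cell type markers 28 were highest in the type they stand for, the exceptions being Slc1a3 and Cspg4. Any pair of libraries shared 19 to 36 barcodes, at most 0.370% of the nuclei. Xist stood at 507, 319 and 541 CPM (counts per 1000000 UMIs) in neurons of control replicates 1 and 2 and AgRP-Gq;POMC-Gi replicate 1, but at 16.2 in AgRP-Gq;POMC-Gi replicate 2. That library therefore stood apart. The study used mice of both sexes, the labels give no sex for a library, and whether sex differs between the libraries was not tested. Calls that change when this library is left out are given with and without it. CPM here is the gene's UMIs summed over the nuclei of one library and divided by all UMIs of those nuclei.

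Slc6a5 was a gene of neurons. Its level was 84.5 and 78.7 CPM in control neurons against 91.1 and 78.6 under AgRP-Gq;POMC-Gi, 83.2 ± 5.93 (SD, n = 4) over all. The next cell type, endothelial cells, stood at 19.7 ± 3.67 and did not overlap with neurons, a 4.23-fold difference. A UMI of Slc6a5 was present in 32.7% of neuronal nuclei (95% Clopper-Pearson interval 31.9 to 33.6%), which covers counting error only. Oligodendrocytes, which should lack the gene, had one in 1.39% of nuclei, with a median of 2460 UMIs per nucleus against 8704 in neurons, and that share is the background against which the others are read. After all nuclei were thinned to 800 UMIs the shares were 5.73% in neurons, 0.494% in oligodendrocytes and 1.39% in endothelial cells. The oligodendrocyte share is thus not the highest outside neurons, and a background read from it may be too low.

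Slc6a9 was a gene of astrocytes, the cells that clear transmitters around synapses. It stood at 234 and 221 CPM in control astrocytes against 253 and 236 under AgRP-Gq;POMC-Gi (236 ± 13.1, n = 4), with a UMI in 53.7% of nuclei. Oligodendrocytes followed at 81.7 ± 10.3 (18.7% of nuclei), 2.89-fold lower, and ependymal cells at 60.9 ± 31.4 overlapped with them. The lowest of the 14 types was neurons, at 13.7 ± 0.780, where 12.3% of the deeper nuclei had a UMI against 1.38% after thinning. Choroid plexus, the next type up at 16.01 ± 16.9, overlapped with neurons, so which type is lowest is not resolved. All 11 astrocyte clusters carried Slc6a9, from 130 CPM in cluster 48 to 272 CPM in cluster 21.

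The 3 alpha subunits were highest in neurons. Glra1, the adult alpha subunit of brainstem and spinal cord, stood at 230, 226, 228 and 233 CPM in neurons of the 4 libraries, controls first (229 ± 2.86, n = 4), the smallest SD relative to its mean of the 7 members. It had a UMI in 69.7% of neuronal nuclei against 2.90% of oligodendrocytes. Glra3, which is known from superficial dorsal horn in pain signalling, stood at 99.2, 104, 129 and 113 CPM (111 ± 13.3), with a UMI in 42.6% of neurons and 0.523% of oligodendrocytes. Glra2, the subunit that dominates before birth, stood at 49.9, 52.2, 56.2 and 48.8 CPM (51.8 ± 3.26), with a UMI in 26.0% of neurons and 0.244% of oligodendrocytes. For all 3 the neuronal level was above that of any other type in every library, by 1.99-fold over Ms4a4b.Immune cells for Glra1, 6.72-fold over F13a1.Immune cells for Glra2 and 11.3-fold over endothelial cells for Glra3. The Ms4a4b.Immune level rests on 11 UMIs in 61 nuclei and spread from 50.8 to 219 CPM.

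Glrb and Gphn were not confined to neurons. Glrb stood at 182 ± 8.79 CPM in neurons and 192 ± 18.9 in oligodendrocytes (n = 4), values that overlapped between libraries, and was present in 73.7% and 36.4% of their nuclei. The small group annotated as Oligodendrocytes/OPC, 123 nuclei, was at 229 ± 95.7, oligodendrocyte precursors (OPC) at 136 ± 9.53 and astrocytes at 46.2 ± 5.66. At an equal 800 UMIs per nucleus, 13.8% of neurons and 14.1% of oligodendrocytes had a Glrb UMI. Gphn was highest in astrocytes (1262 ± 55.7) and oligodendrocytes (1175 ± 65.1), which overlapped, followed by neurons (937 ± 48.9) and OPC (808 ± 47.1). In CPM, Glrb in oligodendrocytes was therefore close to its level in neurons, and Gphn was above its level in neurons without overlap. The alpha subunits stood in oligodendrocytes at 11.7 CPM for Glra1, 0.959 for Glra2 and 2.10 for Glra3. CPM is a share of all UMIs of the nuclei, and oligodendrocyte nuclei held fewer UMIs than neurons.

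**Figure D1:**
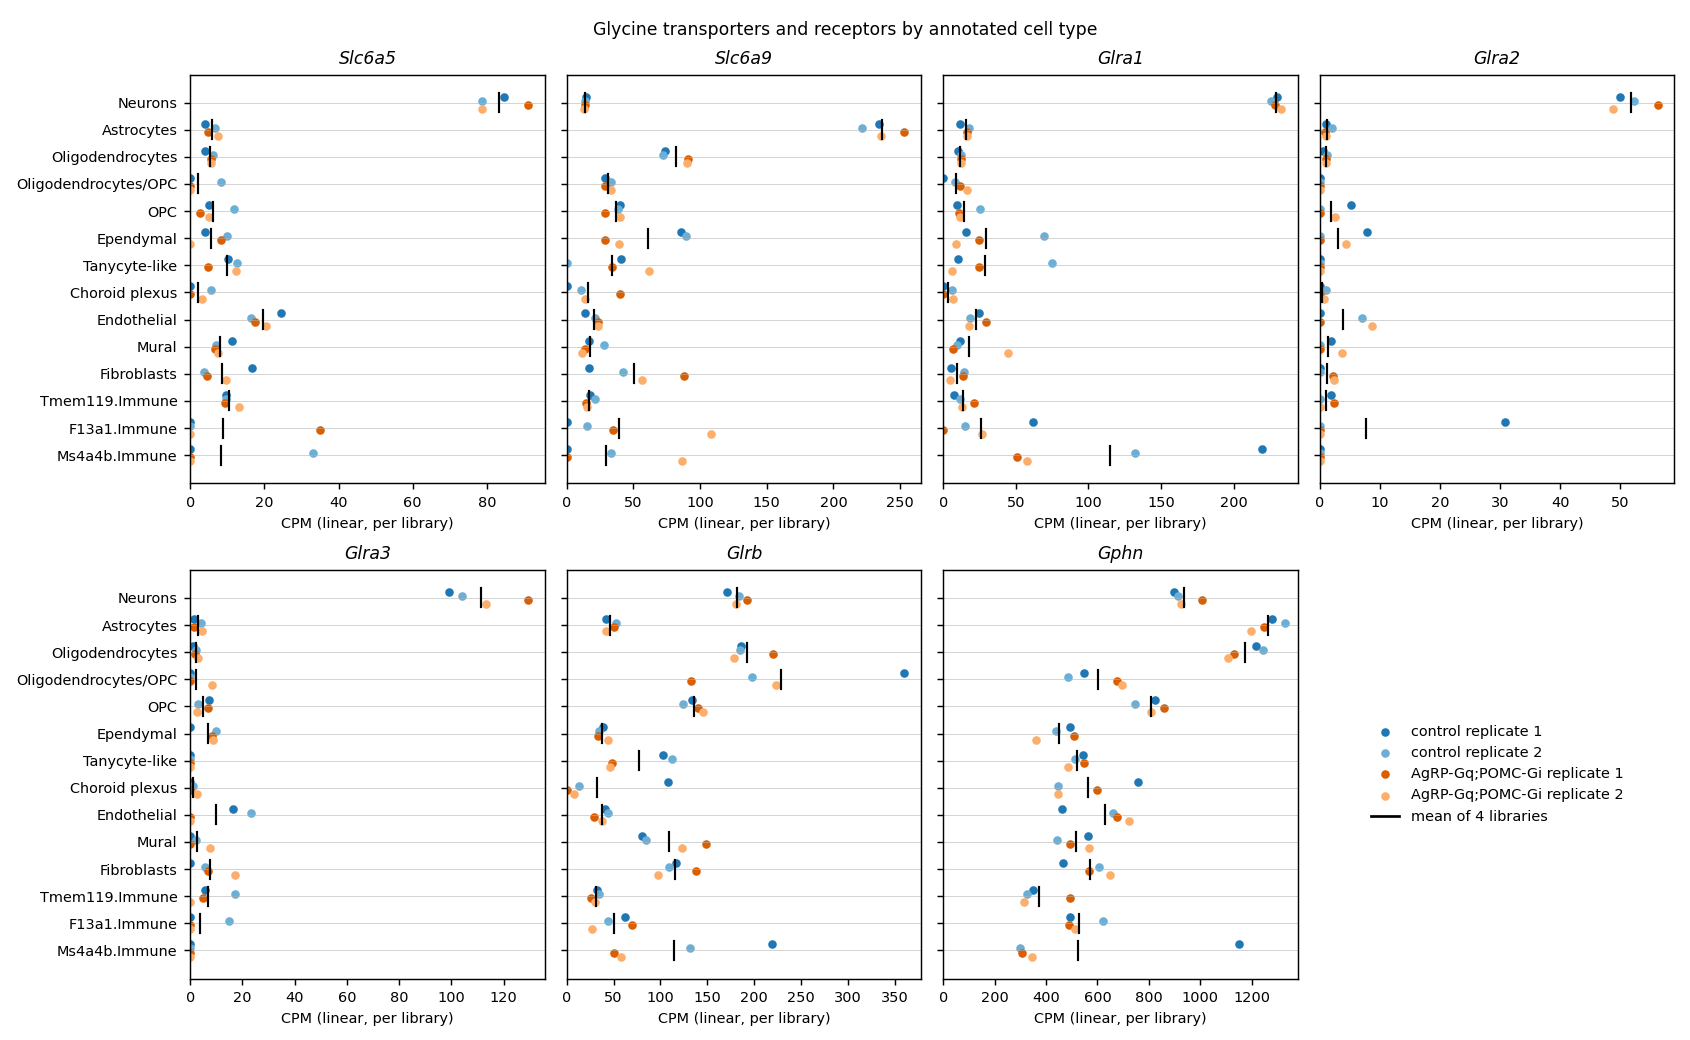
Level of each member (x axis, CPM on a linear scale) in the 14 cell types of the annotation (y axis), 1 point per library and a line at the mean of the 4. Slc6a5 and the 3 alpha subunits peak in neurons, Slc6a9 peaks in astrocytes (236 ± 13.1 CPM), and Glrb and Gphn reach in oligodendrocytes the level of neurons or more.

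Levels of different genes were compared here per length, and the length used was the span of the gene. Whether UMI counts scale with span in these libraries was not tested, and how introns were counted is not given. The order below therefore rests on this choice. In neurons Glrb (2.59 ± 0.125 CPM per kb, n = 4), Glra1 (2.44 ± 0.0305) and Gphn (2.04 ± 0.107) were the highest members per kb, followed by Slc6a5 (1.55 ± 0.110). Glra3 (0.588 ± 0.0700), Slc6a9 (0.338 ± 0.0192) and Glra2 (0.261 ± 0.0164) were lower. Glrb and Glra1 overlapped between libraries, and no other neighbours in this order did. The alpha subunit with the highest level per kb in neurons as a whole was Glra1.

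The members differed in how much they varied among the 134 neuronal clusters. The ratio of the 90th to the 10th percentile of cluster means was 99.5 for Slc6a5, 18.8 for Glra3, 14.3 for Glra2, 3.81 for Glra1, 3.19 for Slc6a9, 1.83 for Glrb and 1.54 for Gphn. Slc6a5 thus ranged widest, from no UMI to high levels, the alpha subunits Glra2 and Glra3 came next, and Glrb and Gphn varied least. Counting error was not taken out of this spread, and clusters held 15 to 227 nuclei.

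Clusters are named here by their number and the marker pair of the annotation. The 5 highest of each member are given, except for Slc6a9, where only the highest is. Slc6a5 peaked in cluster 74 (Rbm20/Nox4), at 239 and 227 CPM with control against 281 and 326 under AgRP-Gq;POMC-Gi, with a UMI in 87.7% of its 122 nuclei. Clusters 134 (Dach1/Sema3a), 79 (Kcnmb2/Slc6a5), 103 (Gata3/Crhbp) and 31 (Cdh3/Nkain3) followed at 251 ± 43.9, 245 ± 30.9, 241 ± 70.2 and 233 ± 9.60 CPM. These 5 overlapped with one another, so their order is not resolved. At the other end, 9 clusters had no Slc6a5 UMI, among them cluster 97 (Gfral/Sctr), where 0 of 101 nuclei had one, which allows a share of nuclei with a UMI of up to 2.97% and does not limit the share that express the gene. Slc6a9 reached at most 33.0 ± 23.2 CPM in any neuronal cluster (cluster 184, Calcr/Shox2, 24 nuclei), below its level in every astrocyte cluster.

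Glra1 peaked in cluster 42 (Mylk/Mctp2), at 752 and 744 CPM with control against 713 and 629 under AgRP-Gq;POMC-Gi, with a UMI in 95.2% of 166 nuclei. Cluster 38 (Kcnh8/Maf) was at 615 ± 102 CPM, cluster 140 (Fgf10/Cpne4) at 565 ± 83.8, cluster 162 (Chrdl1/Kcnh8) at 506 ± 22.7 and cluster 146 (Rxfp1/Ebf2) at 500 ± 112. Glra1 was lowest in cluster 182 (Samd3/Cnpy1), at 19.4 ± 24.4 CPM in 27 nuclei, the cluster in which Glra2 was highest. Glra2 stood there at 394, 135, 506 and 181 CPM in the 4 libraries (304 ± 176). Its next clusters were 147 (Col5a2/Col6a1) at 208 ± 70.4, 104 (Gabra6/Fat2) at 191 ± 46.6, 172 (Bnc2/Ebf3) at 191 ± 121 and 167 (Tph2/Slc6a4) at 159 ± 72.8. The last of these is named for the genes of serotonin synthesis and uptake, and cluster 104 for a GABA-A subunit that is a marker of granule cells.

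Glra3 peaked in cluster 130 (Qrfpr/Tac1), at 358 and 494 CPM with control against 613 and 432 under AgRP-Gq;POMC-Gi, with a UMI in 84.8% of 66 nuclei. Clusters 148 (Ccdc172/Ebf2), 143 (Kcnq5/Hs3st4), 146 (Rxfp1/Ebf2) and 85 (Tfap2b/Glra3) followed at 457 ± 62.5, 377 ± 69.0, 362 ± 72.0 and 337 ± 29.6 CPM. No Glra3 UMI was found in the 94 nuclei of cluster 104 or the 51 nuclei of cluster 157 (Cnpy1/Adamts18), which allows shares of nuclei with a UMI of up to 3.19% and 5.88% (3 counts of the total, counting error only). Cluster 146 was thus among the 5 highest for Glra1 and Glra3, and it was also the highest for Gphn, at 2010 and 2030 CPM with control against 3019 and 2918 under AgRP-Gq;POMC-Gi. This Gphn contrast did not pass the test (log2 fold change 0.75 ± 0.28, adjusted p 0.94 by edgeR), and the control libraries held 9 and 8 nuclei of the cluster. After cluster 146 Gphn was highest in clusters 183 at 1705 ± 257, 63 (Ebf2/Th) at 1619 ± 227, 117 (Ebf2/Nmu) at 1458 ± 233 and 148 at 1436 ± 234 CPM. Glrb was highest in cluster 177 (Foxp2/Ano2), at 417 ± 266 CPM, but that cluster held 36 nuclei from 2 libraries only. Clusters 162, 77 (Ankfn1/Tcerg1l), 84 (Zfp804b/Lemd1) and 128 (Cntn5/Nell1) followed at 293 ± 36.8, 245 ± 44.6, 237 ± 33.4 and 234 ± 62.7 CPM.

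The alpha subunits could be set side by side within a cluster as levels per kb. By this measure Glra1 was the highest of the 3 in 125 of 134 clusters (11949 nuclei), Glra3 in 8 (563 nuclei) and Glra2 in 1 (27 nuclei). Glra1 has the shortest span, 94.0 kb against 198 for Glra2 and 190 for Glra3, so dividing by span raises it relative to them. The count was not made on CPM without this division, where Glra1 would lead in fewer clusters. In clusters 70, 85, 115 and 185 Glra1 led only narrowly per kb, so it would not lead in CPM. In cluster 85, for example, the shares per kb were 49.5% for Glra1 and 48.2% for Glra3. The Glra3 clusters were 80 (Pdyn/Cpa6), 97 (Gfral/Sctr), 126 (Tfap2b/Slc39a8), 130 (Qrfpr/Tac1), 143 (Kcnq5/Hs3st4), 148 (Ccdc172/Ebf2), 154 (Olfr78/Calcr) and 173 (Mecom/Oprk1). Glra3 made up 69.6% of the alpha level per kb in cluster 130, 61.7% in cluster 154 and 51.6% in cluster 97, whose name carries the GDF15 receptor gene Gfral. The Glra3 lead in cluster 173 rests on AgRP-Gq;POMC-Gi replicate 2, since Glra3 stood there at 71.1 and 61.7 CPM with control against 107 and 583 CPM under AgRP-Gq;POMC-Gi. With that library left out Glra1 led in cluster 173, at 0.580 against 0.421 CPM per kb, and also in clusters 97 and 126, and the counts were 127 clusters for Glra1, 5 for Glra3 and 2 for Glra2. Leaving out any other single library gave 8 to 10 Glra3 clusters, and only clusters 130, 148 and 154 were led by Glra3 in all 4 of these counts and with all libraries. The lead was under 5 percentage points in 8 of the 134 clusters, in each with Glra1 and Glra3 as the highest 2, so their places are not resolved either. In cluster 185 Glra2 was as near, with 35.3% Glra1, 32.5% Glra3 and 32.3% Glra2. Glra3 led narrowly in clusters 126, 143, 97 and 80, by 0.133 (cluster 126) to 3.95 points (cluster 80), and Glra1 in clusters 70, 85, 115 and 185, by 1.21 (cluster 70) to 2.81 points (cluster 185). Glra2 made up 86.5% in cluster 182, from 37 alpha UMIs in all, whereas cluster 80 had 32.7% Glra1, 30.6% Glra2 and 36.7% Glra3. At the other extreme Glra1 made up 99.2% of the alpha level in cluster 183.

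**Figure D2:**
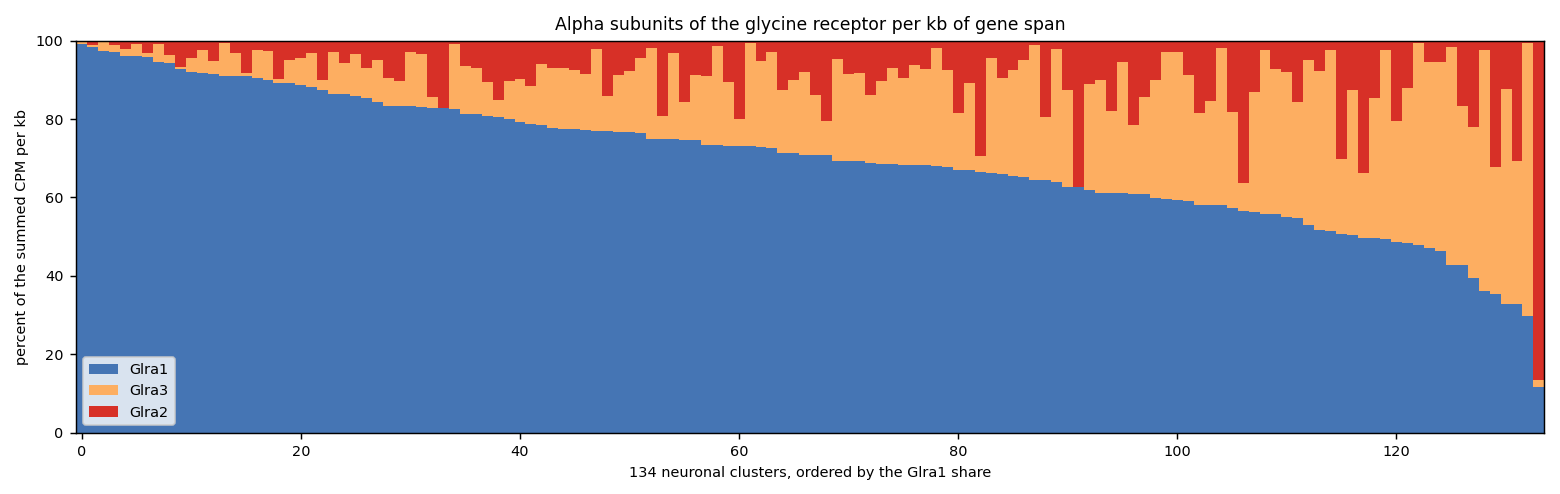
Stacked bars of the shares of Glra1, Glra3 and Glra2 in the summed alpha subunit level per kb (y axis, percent), 1 bar per neuronal cluster, ordered by the Glra1 share. Glra1 leads in 125 of 134 clusters, Glra3 in 8, with 69.6% in cluster 130 (5 without AgRP-Gq;POMC-Gi replicate 2), and Glra2 in cluster 182 with 86.5%. Without division by span Glra1 would lead in fewer clusters.

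To describe glycine and GABA use, a cluster was counted as a Slc6a5 cluster when at least 25% of its nuclei had a Slc6a5 UMI, and as having GABA genes when at least 25% had a Gad1 UMI or at least 25% a Gad2 UMI. Slc6a5 clusters numbered 57 of 134 (42.5%) and held 5923 nuclei, 47.2% of neurons. All 57 also had GABA genes. The reverse did not hold, since 8 clusters with 446 nuclei (3.56% of neurons) had GABA genes without reaching the Slc6a5 minimum, and 69 clusters with 6170 nuclei (49.2%) had neither. At this threshold no cluster of the annotation had Slc6a5 without a GABA enzyme. With a minimum of 50% the counts were 41 of 46, with 10% they were 63 of 64, and at an equal 2000 UMIs per nucleus they were 19 of 27, so the count of clusters with both depends on depth and threshold. Just inside the 25% minimum lay clusters 89, 144 and 178, with Slc6a5 in 33.0%, 32.8% and 28.6% of nuclei, and just outside it clusters 135, 171 and 145, with 24.2%, 23.8% and 20.7%.

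Within the Slc6a5 clusters the median cluster had 149 CPM of Slc6a5, 103 of Gad1, 193 of Gad2, 50.02 of Slc32a1 and 6.34 of Slc17a6, the vesicular glutamate transporter. In the clusters with neither, the medians were 4.94, 3.91, 10.6, 4.43 and 132.9 CPM. The sets were formed by detection of Slc6a5, Gad1 and Gad2, so the direction for these 3 genes was fixed by the rule. Slc32a1 and Slc17a6 were not used in it, and Slc32a1 was higher and Slc17a6 lower in the Slc6a5 clusters. Among the 8 clusters with GABA genes only, Slc17a6 had a median of 132 CPM. Clusters 109 (Gcg/Reln), 149 (Cartpt/Arhgap28), 150 (Nr5a2/Zfp804b) and 160 (Ebf2/Ism1) passed through Gad2, in 25.9% to 29.2% of nuclei, while their Slc32a1 was at 0.904 to 7.29 CPM. Clusters 145 (Col12a1/Tnc) and 171 (Otof/Gbx1) had high Slc32a1 (59.0 and 99.2 CPM) and lay just under the Slc6a5 minimum.

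**Figure D3:**
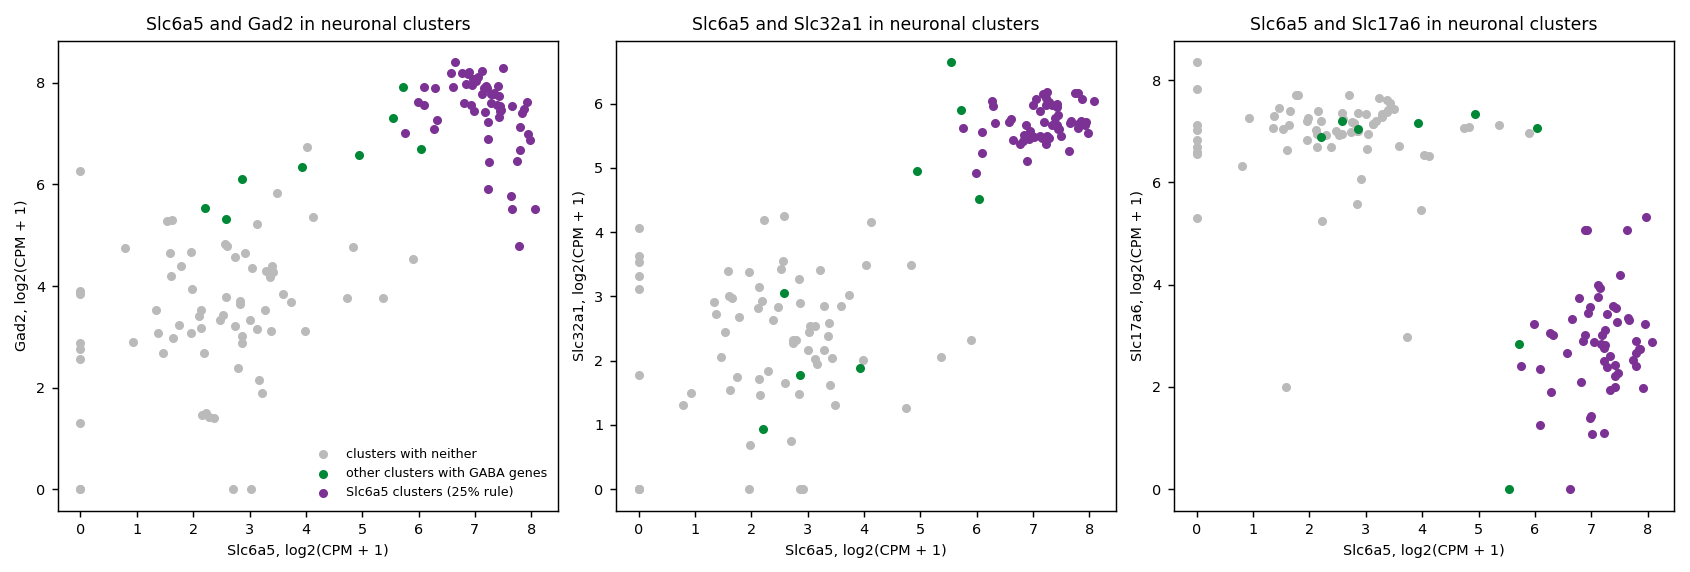
Level of Slc6a5 (x axes) against Gad2, Slc32a1 and Slc17a6 (y axes), all as log2(CPM + 1), 1 point per neuronal cluster and colours for the 3 sets of clusters. The 57 Slc6a5 clusters lie high in Gad2 and Slc32a1 (medians 193 and 50.02 CPM) and low in Slc17a6 (median 6.34 CPM).

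Across all 134 clusters the levels of Slc6a5 and the GABA genes were related positively on the log2 scale (means over libraries), with Pearson's r of 0.84 for Gad1, 0.81 for Gad2 and 0.84 for Slc32a1 (Spearman's rho 0.72, 0.74 and 0.77). Inside the 57 Slc6a5 clusters the relation was negative for the enzymes, with r of −0.37 for Gad1 and −0.41 for Gad2 (rho −0.39 and −0.50), but not for the shared vesicular carrier Slc32a1 (0.32). These are descriptions over clusters that share the same 4 libraries and differ in depth and nucleus number. The balance of Slc6a5 CPM to the sum of Gad1 and Gad2 CPM ran from 0.168 in cluster 89 (Necab1/Arhgap15) to 2.70 in cluster 39 (Col19a1/Sv2b), with a median of 0.445. Because the genes differ in length, the ratio is not a ratio of transcripts. Cluster 39 was followed by clusters 74 (2.35), 133 (Nxph2/Nox4, 1.88), 81 (Gbx1/Fgf10, 1.67) and 33 (Il1rapl2/Slc6a5, 1.55). The order of these 5 is not resolved, since the ratio in single libraries ran from 1.76 to 3.66 in cluster 39, 1.63 to 2.84 in cluster 74, 1.59 to 2.21 in cluster 133, 1.00 to 2.85 in cluster 81 and 1.28 to 2.07 in cluster 33. Cluster 134 (Dach1/Sema3a) was level with cluster 33 at 1.55, so which clusters make up these 5 is not resolved either. The clusters named here were picked by this ratio after its values were seen.

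Slc6a5 and the GABA enzymes were also counted in the same nuclei, which shows RNA of both and not use of both transmitters. In Slc6a5 clusters, nuclei with a Slc6a5 UMI had a UMI of Gad1 or Gad2 in 82.5% and 84.7% of cases with control against 81.0% and 84.5% under AgRP-Gq;POMC-Gi (83.2% ± 1.77, n = 4, 3135 of 3773 nuclei). Nuclei of the same clusters without a Slc6a5 UMI had one in 77.4% ± 1.75, and oligodendrocytes, as background, in 4.72% ± 1.02. The nuclei with Slc6a5 were deeper, with a median of 10165 UMIs against 6757. After thinning to 2000 UMIs, which left out 21 control and 34 AgRP-Gq;POMC-Gi nuclei of these clusters, the shares were 40.6% ± 2.11 with and 42.1% ± 1.42 without Slc6a5, with oligodendrocytes at 3.45%. The 2 kinds of nuclei therefore overlapped at equal depth. With 2 UMIs required of each the shares were 65.8% ± 2.59, 55.6% ± 3.02 and 0.369% ± 0.129. Slc32a1 was found in 41.4% ± 2.02 of nuclei with Slc6a5, 28.8% ± 1.26 of those without and 2.78% ± 0.579 of oligodendrocytes. At 2000 UMIs these shares were 11.2% ± 0.483, 9.41% ± 1.05 and 2.01% ± 0.453, and with 2 UMIs required they were 14.96% ± 2.67, 6.94% ± 1.40 and 0.111% ± 0.0262. By cluster, the share of Slc6a5 nuclei with a GABA enzyme ran from 54.3% in cluster 81 to 100%, with a median of 87.2%.

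The Slc6a5 clusters with the most Slc17a6 nuclei, picked after their values were seen, held Slc17a6 mainly in nuclei without a Slc6a5 UMI. In cluster 39, Slc17a6 was present in 14.7% of the nuclei with Slc6a5 (20 of 136) and in 66.7% of those without. The same shares were 4.44% (2 of 45) and 47.4% in cluster 134 and 7.23% (6 of 83) and 29.2% in cluster 57 (Adarb2/Ebf2). In cluster 135, just under the minimum, they were 20.0% (3 of 15) and 59.6%. The share was lower in nuclei with Slc6a5 in each of these 4 clusters, which is a description with no test. How much of it comes from nuclei of another kind joined in one cluster was not tested.

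Receptor and scaffold genes were present in all 3 sets of clusters. Median CPM in Slc6a5 clusters, other clusters with GABA genes and clusters with neither was 198, 213 and 190 for Glra1, 43.2, 29.0 and 39.0 for Glra2, and 80.9, 112 and 123 for Glra3. For Glrb it was 187, 195 and 179, and for Gphn 871, 824 and 948. The ranges over clusters overlapped for all 5 genes. Among the 57 Slc6a5 clusters, r with the log2 level of Slc6a5 was 0.41 for Gphn, 0.37 for Glra1, 0.28 for Glrb, −0.25 for Glra3 and −0.28 for Glra2 (rho 0.43, 0.47, 0.28, −0.31 and −0.28). Across all 134 clusters r lay between −0.20 for Gphn and 0.20 for Glrb. In the 5 clusters highest in Slc6a5 (74, 134, 79, 103 and 31) Glra1 made up 97.1%, 81.2%, 81.3%, 77.3% and 84.4% of the alpha level per kb.

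**Figure D4:**
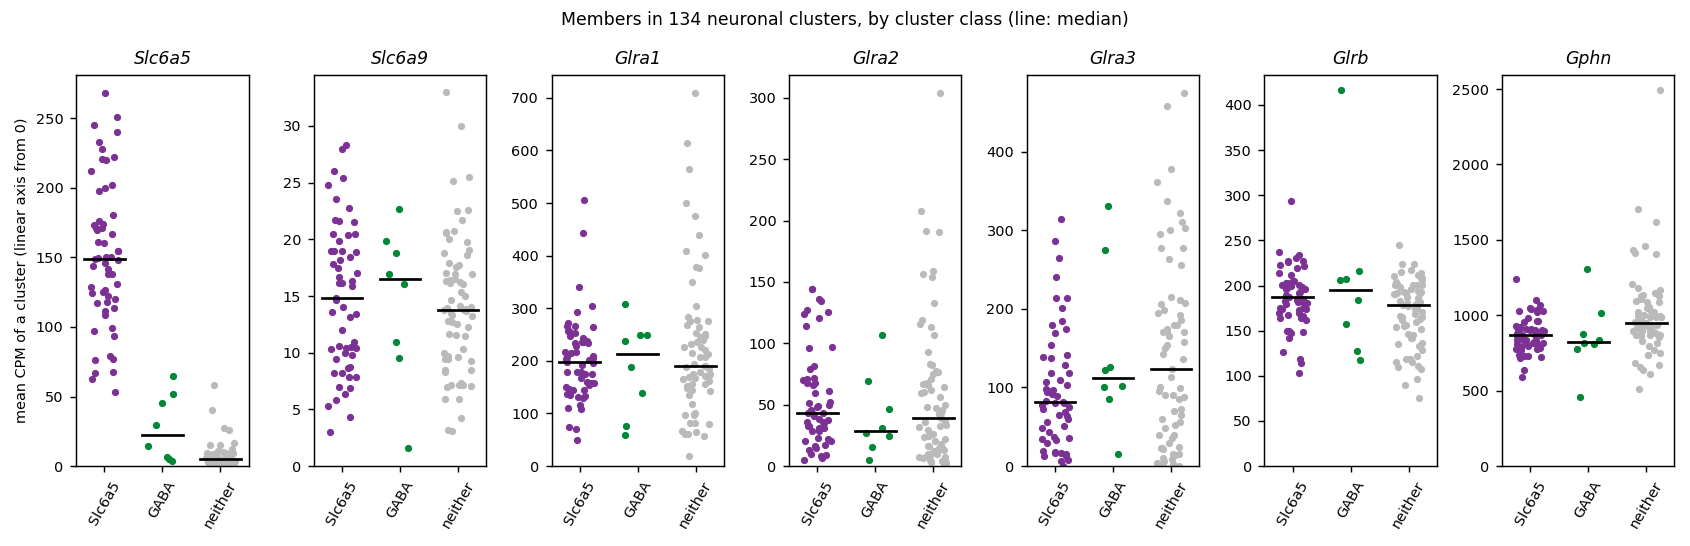
Mean CPM of each member (linear axis from 0) in every neuronal cluster, 1 point per cluster, split into Slc6a5 clusters, other clusters with GABA genes and clusters with neither, with a line at the median. Slc6a5 is high in the first set, as the rule for the set requires, and the receptor genes and Gphn overlap over the 3 sets (medians of Glra1 198, 213 and 190 CPM).

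The genes whose cluster pattern was most like that of Slc6a5, among 12114 genes detected in 5% of neurons or more and by Pearson's r of log2(CPM + 1) over 134 clusters with the 4 libraries summed in each cluster, were Gm14204 (0.92), Slc32a1 (0.87), Gad1 (0.86), Gad1os (0.83) and Gad2 (0.83). Gm14204 begins 44 bases from Slc32a1 on the other strand, and Gad1os overlaps Gad1 on the other strand. Of the listed lineage factors, Pax8 was 7th (0.81) and Pax2 8th (0.79), Lhx5 21st (0.59) and Lhx1 52nd (0.42). Slc17a6 was the last of all 12114 (−0.83). For Glra1 the genes most alike were Gm12236 (0.89), which overlaps Glra1 on the other strand so that their reads may not be fully told apart, then Gm12239 (0.73) and the GABA-A subunit Gabra5 (0.66). For Glra3 they were the sodium-activated potassium channel Kcnt2 (0.69), Gm26871 (0.68) and Begain (0.67). Among the 3 genes most like Glrb were Atp1b1 (0.59) and St8sia5 (0.59), and among the 3 most like Gphn were Smarca2 (0.57) and Tgfbr3 (0.51). No gene exceeded 0.48 for Glra2 (Zfp395 0.48, Spred2 0.46, Gm45321 0.44) or 0.45 for Slc6a9 (Smg6 0.45, Ogdhl 0.43, Smurf2 0.42).

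The groups were then compared over libraries, 2 against 2, to ask whether any member differed 1 h after CNO. In neurons edgeR called 0 of 7 members at an adjusted p of 0.05, and 0 of 12115 genes (0%), while 1 member and 667 genes had an unadjusted p under 0.05. DESeq2 called 0 members and 12 of 9766 genes. Glra3 was the member with the lowest p. It stood at 99.2 and 104 CPM in control neurons against 129 and 113 CPM under AgRP-Gq;POMC-Gi, without overlap of the groups, with a log2 fold change of 0.32 ± 0.10 (SE) and an adjusted p of 0.81 by edgeR. On the plain CPM scale, without the TMM factors by which edgeR scales libraries, its log2 ratio of group means was 0.26 over all neurons. With the makeup of clusters held fixed it was 0.19, but over 120 clusters only, so the nuclei differ as well. Gphn (899 and 914 against 1008 and 926 CPM) did not overlap either, at 0.16 ± 0.11, and the other 5 overlapped. Groups without overlap were common, since they made up 38.1% of all 12115 genes, so 2 of 7 members is not above the background. Of the comparison list, 0 of 15 genes tested were called.

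**Figure D5:**
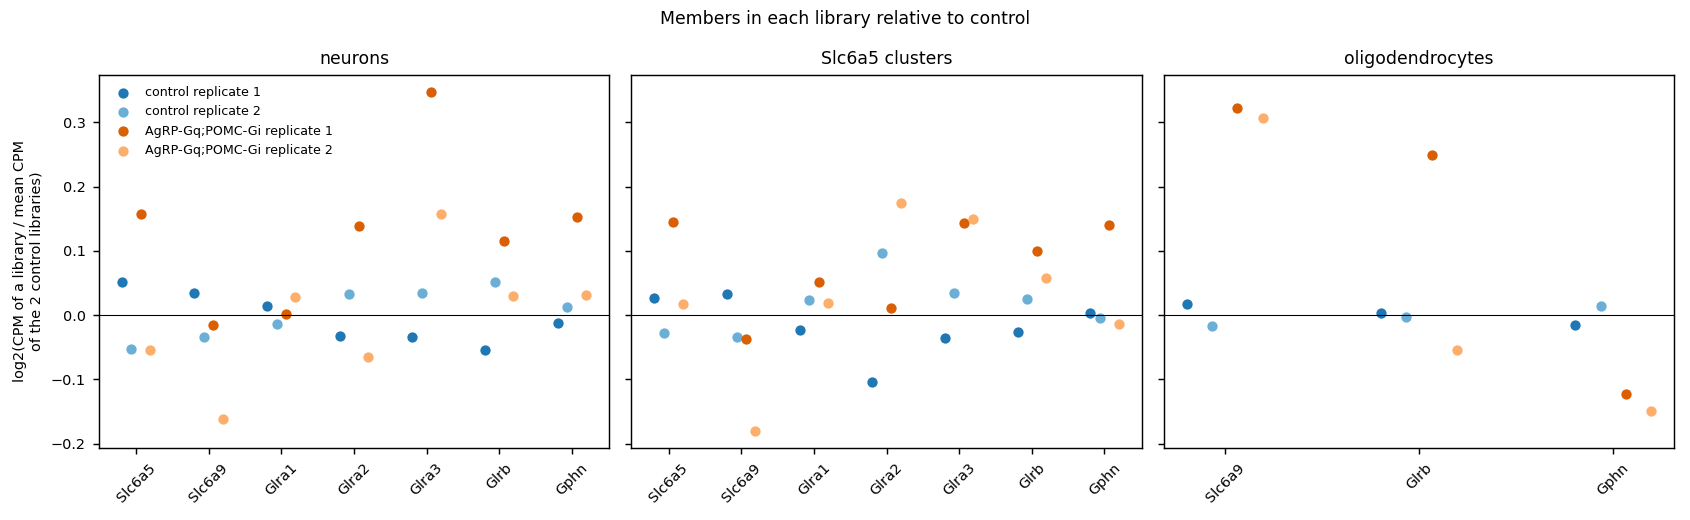
Level of each member tested in neurons, Slc6a5 clusters and oligodendrocytes, as log2 of a library's CPM over the mean CPM of the 2 control libraries (y axis), 1 point per library. Glra3 in neurons (control 99.2 and 104 CPM, AgRP-Gq;POMC-Gi 129 and 113 CPM) and Slc6a9 in oligodendrocytes lie above the controls in both libraries, and no member passed the test.

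Without AgRP-Gq;POMC-Gi replicate 2, the library low in Xist, edgeR called 5 of 7 members higher in neurons: Glra3 by 0.46, Slc6a5 by 0.27, Gphn by 0.27, Glra2 by 0.25 and Glrb by 0.23 on the log2 scale. The same fit called 16.6% of all genes, and it rests on a single AgRP-Gq;POMC-Gi library that is assumed to vary as the controls do. In the Slc6a5 clusters, summed as one population, 0 of 7 members and 0% of 12099 genes were called, with 1 member and 646 genes at an unadjusted p under 0.05 and, by DESeq2, 0 members and 5 genes. Slc6a5 in these clusters stood at 165 and 158 CPM with control against 178 and 163 under AgRP-Gq;POMC-Gi. The member under 0.05 was Glra3, at 84.1 and 88.3 against 95.2 and 95.6 CPM (log2 fold change 0.20 ± 0.08, adjusted p 0.84). Without the same library 4 members were called (Slc6a5, Glra3, Glrb and Gphn), beside 19.3% of all genes. Slc6a5 clusters made up 46.5% and 47.4% of control neurons against 49.1% and 45.8% under AgRP-Gq;POMC-Gi, a difference of 0.473 percentage points (exact permutation test, two-sided, p = 1, where 0.333 is the smallest p that 2 against 2 allows).

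Over 13 cell types with enough nuclei, 0 of 43 pairs of member and type were called by edgeR, against 0.111% of all pairs (112 of 101074), and 5 (11.6%) had an unadjusted p under 0.05, against 5.70% of all pairs. DESeq2 called 0 of 43. The tightest contrast was Slc6a9 in oligodendrocytes, at 73.7 and 72.0 CPM with control against 91.0 and 90.1 CPM under AgRP-Gq;POMC-Gi, a log2 fold change of 0.37 ± 0.10 with an adjusted p of 0.30 by edgeR. The groups did not overlap and differed by more than their spread, but the value did not pass the correction, and 34.7% of all pairs of gene and type had groups without overlap (18 of the 43 member pairs). Gphn in the same cells stood at 1217 and 1242 against 1130 and 1109 CPM. In astrocytes, where Slc6a9 is highest, the levels were 234 and 221 against 253 and 236 CPM, a log2 fold change of 0.15 ± 0.13 with an adjusted p of 0.75. The other 4 pairs under 0.05 were Slc6a9 in ependymal cells (85.9 and 89.6 against 28.8 and 39.1 CPM, adjusted p 0.99), Slc6a9 in fibroblasts (16.7 and 42.0 against 88.0 and 56.1, adjusted p 1.00), Glrb in mural cells (80.3 and 84.0 against 149 and 123, adjusted p 0.51) and Glra3 in neurons. Slc6a9 thus ran in opposite directions in ependymal cells and oligodendrocytes, neither past the test. Without AgRP-Gq;POMC-Gi replicate 2, 7 of 43 pairs were called, Slc6a9 and Glrb in oligodendrocytes and the 5 in neurons, beside 2.79% of all pairs. Of the comparison list, 0 of 89 pairs were called, with 9 at an unadjusted p under 0.05 and 1 called by DESeq2.

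In single neuronal clusters, 0 of 778 pairs of member and cluster were called over the 120 clusters tested, against 0.0388% of all pairs (541 of 1395528). An unadjusted p under 0.05 was found for 59 of the 778 (7.58%) and 4.51% of all pairs, and DESeq2 called 0 of 775. The lowest p was that of Slc6a5 in cluster 127 (Dach1/Unc5d), which stood at 75.9 and 64.4 CPM with control against 185 and 242 CPM under AgRP-Gq;POMC-Gi, a log2 fold change of 1.58 ± 0.43 with an adjusted p of 0.17 by edgeR. The next was Slc6a5 in cluster 39, at 142 and 165 against 246 and 237 CPM (0.74 ± 0.19, adjusted p 0.29). Glrb in cluster 90 (Pou4f1/Klhl1) followed at 134 and 115 against 243 and 223 CPM (0.93 ± 0.24, adjusted p 0.55). Slc6a5 in cluster 39 was called (log2 fold change 0.81 ± 0.21, adjusted p 0.014 by edgeR) when AgRP-Gq;POMC-Gi replicate 2 was left out, the 1 member pair called in that fit, beside 0.0981% of all pairs. Leaving out control replicate 1, control replicate 2 or AgRP-Gq;POMC-Gi replicate 1 gave 0, 1 and 3 called member pairs, beside 0.0535%, 0.0959% and 0.081% of all pairs. In the fit that left out AgRP-Gq;POMC-Gi replicate 2, Slc6a5 in cluster 127 had an adjusted p of 0.64 (log2 fold change 1.48), and Glrb in cluster 90 one of 0.089 (1.06). With all 4 libraries none of these 3 passed the correction. In each the groups did not overlap, as in 271 of the 778 member pairs and 33.6% of all pairs.

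Across clusters 495 of the 778 fitted log2 fold changes of members (63.6%) lay above 0, against 51.1% over all pairs of gene and cluster. Without TMM factors they were 448 (57.6%) against 46.3%, and with AgRP-Gq;POMC-Gi replicate 2 left out 539 (69.3%) against 49.2%. The fitted value of Glra3 was above 0, that is, higher under AgRP-Gq;POMC-Gi, in 81 of 117 clusters, with a median of 0.28. In 26 of the 117 it had an unadjusted edgeR p under 0.05, counted in either direction, beside 4.51% of all pairs of gene and cluster. Gphn was higher in 90 of 120 clusters, with a median of 0.15, and Glrb in 83 of 120, with a median of 0.14. Slc6a5 was higher in 52 of 77, Glra1 in 72 of 120, Glra2 in 62 of 113 and Slc6a9 in 55 of 111. Without TMM factors Glra3 was higher in 76 of 117, Gphn in 76 of 120, Glrb in 74 of 120 and Glra1 in 63 of 120. Clusters of the same library are not replicates, so these counts describe the 4 libraries and carry no test. The direction in single clusters varied, with Glra3 lower in cluster 107, at 35.8 and 44.4 against 6.10 and 10.9 CPM, an adjusted p of 0.60 by edgeR.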

How the data were processed

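Hindbrain nuclei were profiled in 4 droplet libraries of the 10x Genomics 3′ chemistry, 2 per group. The authors deposited UMI counts per gene and nucleus, which they made with Cell Ranger 7.0.0 on GRCm38 (mm10) and handled in Seurat 4.3.0, per the submitters' processing notes. The counting of introns and of strand is not given in the sources used here, so reads of Glra1, Slc6a9 and Gphn may not be told apart from those of genes that overlap them on the other strand (Gm12236 for Glra1, Gm17114, Ccdc24 and B4galt2 for Slc6a9, Gm48226 for Gphn). Cell types, clusters and quality control, which included doublet detection, were taken from the authors' deposited annotation and not computed again, and no other doublet caller was run.

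UMI counts were summed per library and cell type or cluster and scaled to the total of those nuclei (CPM). Groups were compared with the quasi-likelihood test of edgeR 4.0.16 in R 4.3.3 on summed counts, with TMM factors, for genes detected in 5% of nuclei or more, with Benjamini-Hochberg adjustment over all genes of a unit. Units were all neurons, the Slc6a5 clusters, 13 of 14 cell types with at least 10 nuclei in every library (choroid plexus was left out) and 120 of 134 neuronal clusters with at least 5. A pair passed at an adjusted p under 0.05. Alternatives were DESeq2 1.42.0, library size without TMM factors, no filter on genes, filterByExpr, the replicate number as a block, each library left out in turn, and for clusters other detection minimums, 2 UMIs, and thinning to 2000 UMIs (800 for cell types). The study's own program for mixed models over nuclei, nebula, was not used here. Other tables were computed in Python 3.11.15.

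The genes named are the 7 members, the 22 listed genes and, by rule, the 5 genes most like Slc6a5 and the 3 most like each other member, and the clusters named are the 5 highest of each member. Some genes and cluster names that these rules give are not reported here. Further clusters were named after their values were seen. The members and lists were chosen with earlier results of these data known. Promoters are from RefSeq on GRCm38.p6, and positions from GENCODE M21. Replicate numbers are shared between groups. Deviations from the group means of same-numbered libraries correlated at 0.182 over genes in neurons, but the labels do not say that a number marks a shared mouse or day, so groups were compared without pairing.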

Additional observations from a re-analysis of the deposited data

Results flagged for a closer look

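Nuclei that did not pass the authors' quality control, 1288 and 1318 with control against 1003 and 1233 under AgRP-Gq;POMC-Gi, enter no comparison above, and 4 members were higher there in both AgRP-Gq;POMC-Gi libraries than in either control library, against 14.9% of the 11058 genes found in 5% or more of these nuclei. For Slc6a5 the gap between the groups was small. Slc6a5 stood at 50.7 and 52.5 CPM with control against 65.0 and 52.7 under AgRP-Gq;POMC-Gi, a mean of 58.8 for the latter. Glra1 stood at 148 and 131 against 164 and 157 CPM (mean 161), Glra2 at 29.0 and 24.1 against 39.6 and 32.4 CPM (mean 36.0), and Glra3 at 51.5 and 63.9 against 86.6 and 67.1 CPM (mean 76.8). These nuclei carry no cell type, and neurons made up more of the kept nuclei under AgRP-Gq;POMC-Gi (38.0% and 36.5% against 25.4% and 27.2%). Whether the share of neurons also differs among the nuclei left out was not tested.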

How the results depend on the processing

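Of 142 alternative values, 117 kept their direction and their side of the threshold. The counts of called members did not change with DESeq2, without TMM factors, without a filter on genes or with filterByExpr. The fit with a replicate block called 0 members in neurons, Slc6a5 clusters, cell types and neuronal clusters. It called 168 of 12115 genes in neurons (1.39%) and 156 of 12099 in Slc6a5 clusters (1.29%). Of all pairs of gene and unit it called 0.911% over cell types and 0.0562% over neuronal clusters. The replicate numbers give only 2 pairs, the deviations of same-numbered libraries correlated at 0.182 in neurons and 0.175 in Slc6a5 clusters, and nothing in the labels says what they share. Leaving out 1 library at a time gave 0 to 5 called members in neurons, 0 to 4 in Slc6a5 clusters, 0 to 7 pairs over cell types and 0 to 3 over neuronal clusters, and the cause was not tested. In neurons, cell types and Slc6a5 clusters all calls came when AgRP-Gq;POMC-Gi replicate 2 was left out. That fit rests on a single AgRP-Gq;POMC-Gi library and also called many other genes, at the shares given above. In neuronal clusters the calls were Glra3 in cluster 58 without control replicate 2 (log2 fold change 1.45) and Slc6a5 in cluster 39 without AgRP-Gq;POMC-Gi replicate 2 (0.81). Without AgRP-Gq;POMC-Gi replicate 1 they were Slc6a5 in cluster 30 (-3.75), Glra2 in cluster 127 (2.06) and Glra3 in cluster 173 (2.76). Slc6a5 in cluster 30 was the only one lower, and stood at 33.2 and 27.5 CPM with control against 47.5 and 2.12 under AgRP-Gq;POMC-Gi. The log2 fold change in neurons ran from -0.051 to 0.27 for Slc6a5, -0.16 to 0.10 for Slc6a9 (0.01 without control replicate 1), -0.061 to 0.25 for Glra2 and 0.16 to 0.46 for Glra3 over these fits, so its sign turned for Slc6a5, Slc6a9 and Glra2.

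The number of Slc6a5 clusters was 56 to 59 without 1 library, and 27 (19 with GABA genes) when nuclei were thinned to 2000 UMIs, where fewer molecules are left to reach the minimum. The difference in the share of neurons in Slc6a5 clusters was −1.51 percentage points with a minimum of 10% of nuclei, −1.58 with 50%, −2.82 after thinning and −2.92 when clusters were chosen by a mean CPM at least 4-fold that of oligodendrocytes, and it ran from −1.24 to 2.28 without 1 library. Its direction is therefore not settled. The share of Slc6a5 nuclei with a Gad1 or Gad2 UMI was 40.6% after thinning and 65.8% with 2 UMIs required. Per kb of gene span, the number of neuronal clusters led by Glra1 was 123 to 127 without 1 library, which was tried after the data were seen, and by Glra3 5 to 10. The lead without division by span was not counted, and Glra1 would have it in fewer clusters. The leading cell type changed for Gphn after thinning (oligodendrocytes), and for Glrb by mean log-normalized value (neurons) and without control replicate 1 (oligodendrocytes).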

Other observations

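Other glycine and GABA carriers of the list were found in the cells that carry Slc6a9. Astrocytes had 568 ± 39.7 CPM (SD, n = 4) of Slc7a10, an exchanger of small neutral amino acids that also moves glycine, with a UMI in 79.0% of nuclei, against 3.68 ± 0.71 in neurons. They had 730 ± 48.4 CPM of the GABA transporter Slc6a11, against 11.8 ± 1.27 in neurons. Slc38a3, a glutamine carrier, stood at 143 ± 9.69 CPM in astrocytes and 0.822 ± 0.241 in neurons. Gldc, the glycine-splitting enzyme of the cleavage system, stood at 20.4 ± 4.74 CPM in astrocytes and 2.43 ± 0.50 in neurons, whereas its partners Amt, Gcsh and Dld differed less between the same types (20.9 and 17.6, 12.8 and 9.75, 38.1 and 35.0 CPM).

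Gad1 was as high in OPC as in neurons, at 62.1 ± 6.90 and 50.6 ± 3.26 CPM, with a UMI in 20.7% and 26.9% of nuclei. Gad2 was not, at 9.69 ± 1.45 CPM in OPC and 95.4 ± 1.95 in neurons, and oligodendrocytes had 7.03 ± 1.42 CPM of Gad1 and 11.8 ± 1.78 of Gad2. The neuronal mean of Gad1 joins unlike neurons, with 99.5 ± 8.52 CPM in Slc6a5 clusters and 5.38 ± 0.944 in clusters with neither. Gad1 in OPC was thus below its level in Slc6a5 clusters. These values were noticed in the list and were not tested.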
